A study of Mus musculus with 6 samples.

Results

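The interferon system of cultured mouse dermal cells is described here through 50 genes: interferon beta, its receptors and kinases, the transcription factors STAT2 and the IRFs, nucleic acid sensors, antiviral effectors and the enzymes that regulate them. The genes were listed by symbol. Each is represented by a probe set whose platform annotation names that gene alone, the one with the highest mean over all 6 arrays. All 50 were found among the 19938 genes measured in this way, Tmem173 through its present symbol Sting1. Of these members, 49 had a single such probe set, and 43 had a group mean above the background level of the arrays in at least 1 group.

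Total RNA came from dermal cells of newborn C57BL/6 mice, hybridised to 6 one-colour Affymetrix arrays. The 3 arrays labelled DMSO were cultured without the compounds, and the 3 labelled FR with forskolin and RepSox, each at 20 µM, for 2 days. Forskolin is a plant diterpene that switches on adenylyl cyclase, the enzyme that makes cyclic AMP, and RepSox blocks the kinase of the type I TGF-β receptor. The compounds were given together, so their shares in any change cannot be told apart. The labels name no genotype beyond the strain, and whether each array stands for its own culture or litter is not stated. The p-values therefore reflect nothing but the spread among these 6 arrays, which may be technical.

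Type I interferons such as interferon beta bind the receptor chains IFNAR1 and IFNAR2, and interferon gamma binds IFNGR1 and IFNGR2. The attached kinases JAK1 and TYK2 then activate STAT proteins. STAT2 and IRF9 are parts of a complex that binds the interferon-stimulated response element before many target genes. Fibroblasts also detect viral RNA and DNA in the cytoplasm through RIG-I (Ddx58), MDA5 (Ifih1) and STING (Tmem173), which induce interferon beta through IRF3 and IRF7. Many sensors and factors of the pathway are themselves interferon targets. Isg15 was not analysed here.

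Expression is given as log2 values from the RMA procedure, and each change is FR minus DMSO in group means, tested with limma across all 19938 genes and adjusted by Benjamini-Hochberg. Here "rose" and "fell" mean adjusted p under 0.05, n = 3 arrays per group. Array medians over all probe sets lay between 5.98 and 6.07. As a background level, the 95th percentile of 1027 olfactory receptor genes was taken on each array. It was 5.63 to 5.68 in DMSO and 5.81 to 6.01 in FR, so the dim end of the scale lay higher with FR. A member under that level in FR only has its fall also given as a lower bound against the FR level. Of 10 fibroblast markers, all but Fap were above background in both groups. Among the 10, 5 fell and 3 rose. Col1a1 fell (10.35 in DMSO and 9.26 in FR) and Pdgfra did not pass (11.16 and 11.13). Lum rose (8.95 and 11.12), the largest change of the list, as did Col3a1 and Dcn.

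One array stood apart for these genes. DMSO replicate 1 had the highest of the 3 DMSO values for 41 of the 50 members, against 32.1% of all genes. The median excess of that array over the mean of the other DMSO arrays was 0.21 for the members and 0.00 for all genes. Its largest excesses were 0.86 for Mx2, 0.72 for Rtp4, 0.69 for Ifit3 and 0.60 for Ifit1. Member counts are therefore also given without it.

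Of the 50 members, 31 (62%) fell, 6 (12%) rose and 13 did not pass. Of all genes tested, 14.5% were lower and 13.4% higher by the same test. The measured fall was at least 1 on the log2 scale for 20 members, against 1.5% of all genes. Among the 20, Gbp3, Mx2 and Herc6 were under background in FR, and Zbp1 was at that level. A 2-fold fall is therefore not shown for Gbp3 and Mx2, while Herc6 was at least 2.17-fold lower. The median change of the members was -0.62, and that of all genes 0.05. In 34 members every FR array lay below every DMSO array, as in 20.9% of all genes, and in 7 every FR array lay above, as in 23%. Without DMSO replicate 1 the counts were 31 lower and 6 higher, 17 members fell by at least 1 on the log2 scale (Gbp3 and Mx2 again among them), and the median was -0.60.

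The roles differed in their counts. Effectors and their regulatory enzymes fell in 20 of 28 cases and rose in none, with a median of -1.09. Sensors and adaptors fell in 6 of 7 cases (median -0.81). STAT2 and the IRFs fell in 4 of 8 cases and rose in 1 (median -0.30). Receptor chains and kinases rose in 4 of 6 cases and fell in 1 (median 0.34). These are counts over genes, and the difference between roles was not tested.

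**Figure D1:**
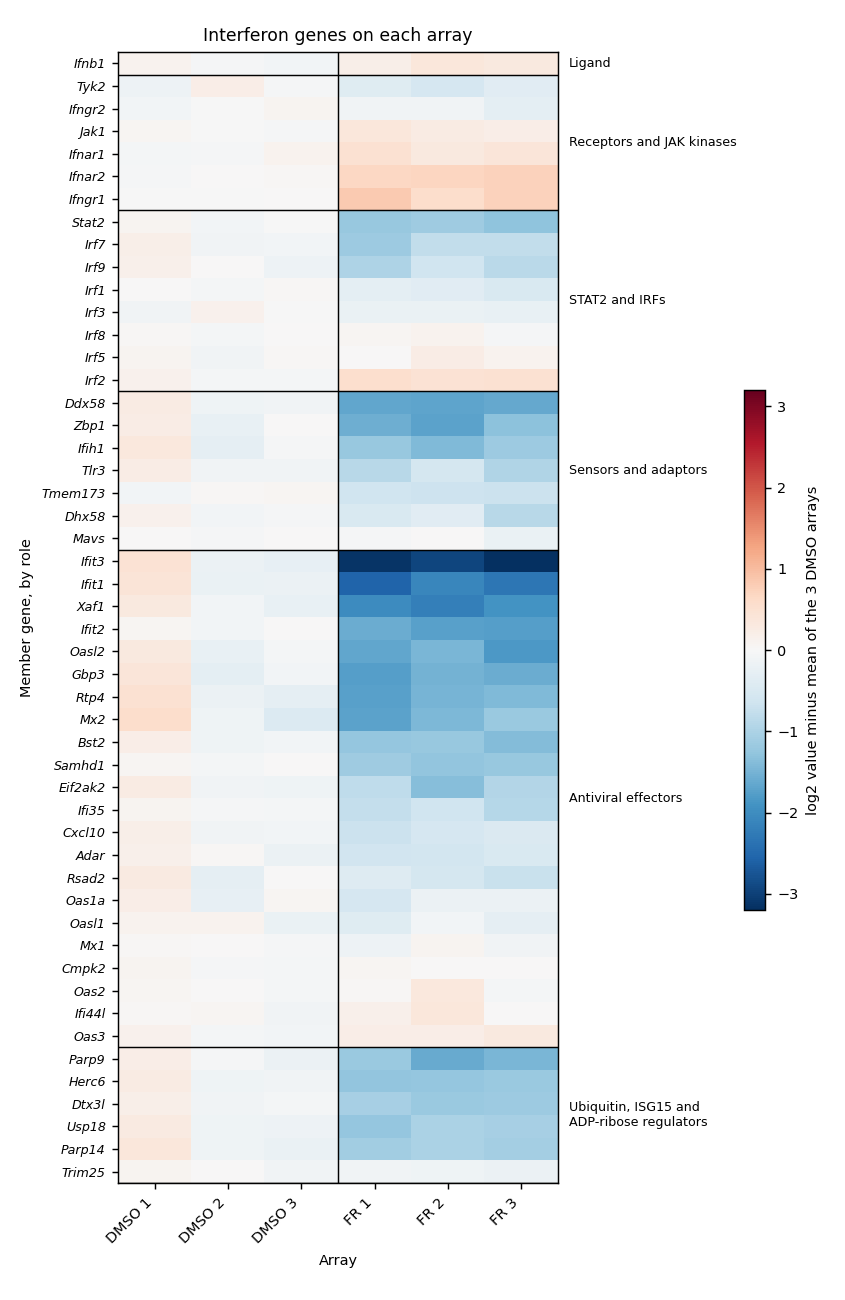
Heat map of the 50 members (rows, grouped by role) on the 6 arrays (columns), coloured by the log2 value minus the mean of the 3 DMSO arrays. Most effector and sensor rows are blue on all 3 FR arrays, 4 of 6 receptor and kinase rows are red there, and DMSO replicate 1 is slightly red in many rows that fell.

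**Figure D2:**
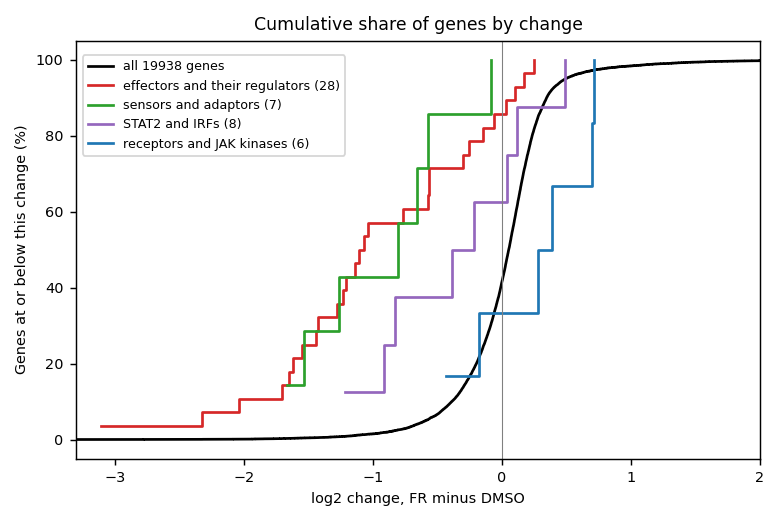
Cumulative share of genes (vertical axis, percent) at or below each log2 change (horizontal axis, FR minus DMSO) for all 19938 genes and 4 groups of members. The curve of the 28 effectors and regulators crosses 50% near its median of -1.09 and that of all genes near 0.05, and that of the 6 receptors and kinases near 0.34.

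Ifnb1, the gene for interferon beta, was under the background level on all 6 arrays. Its values were 3.46, 3.30 and 3.27 in DMSO and 3.53, 3.70 and 3.65 in FR. The groups did not overlap and the difference passed (log2 change 0.28, SE 0.09, adjusted p = 0.0401). The dim end of the scale also lay higher with FR, and the olfactory receptor genes had a median change of 0.14. At this level no fold is given, and the call was lost under 10 of the alternatives tried, with adjusted p from 0.054 to 0.139, including the omission of DMSO replicate 2 (0.124) or 3 (0.139) or of FR replicate 2 (0.106) or 3 (0.0897).

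The binding chains of both receptors rose. Ifnar2 encodes the chain that holds type I interferon most tightly, and it read 9.51, 9.56 and 9.58 in DMSO and 10.22, 10.23 and 10.29 in FR. It was 1.62-fold higher, with a log2 change of 0.70 (SE 0.08) and an adjusted p of 7.61e-05. Its groups were 0.70 apart with an SD of 0.04 in each. Ifngr1, the ligand-binding chain for interferon gamma, rose 1.64-fold, from 7.99 ± 0.02 to 8.70 ± 0.14 (SD, n = 3; adjusted p = 0.000185). Ifnar1, the partner chain of Ifnar2, rose 1.31-fold, from 8.67 ± 0.09 to 9.06 ± 0.09 (adjusted p = 0.00778). In these 3 genes every FR array lay above every DMSO array.

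The other signalling members moved less or the other way. Jak1, a kinase used by both receptors, rose 1.21-fold (log2 change 0.28, adjusted p = 0.0289), a call lost under 6 alternatives (adjusted p 0.0505 to 0.0997), among them the omission of any DMSO replicate or of FR replicate 1 or 2. Tyk2, the kinase bound to IFNAR1, fell by 0.43 on the log2 scale, from 6.61 ± 0.19 to 6.18 ± 0.09 (adjusted p = 0.0117). Ifngr2, the second chain of the interferon gamma receptor, did not pass, at 9.22 ± 0.08 in DMSO and 9.04 ± 0.11 in FR (log2 change -0.18, 95% confidence interval -0.38 to 0.02, adjusted p = 0.169). Ifnar2, Ifnar1 and Ifngr2 stand in a row in the RefSeq mouse gene table (GRCm38.p6). The only protein-coding gene among them is Il10rb, between Ifnar2 and Ifnar1, and this receptor gene for interleukin-10 and interferon lambda rose as well (log2 change 0.54, adjusted p = 0.00277).

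Among the transcription factors, the members of the interferon-stimulated complex fell. Stat2 read 8.77, 8.60 and 8.68 in DMSO and 7.47, 7.54 and 7.39 in FR. It was 2.32-fold lower (log2 change -1.21, SE 0.09, adjusted p = 2.5e-06), and DMSO replicate 1 was only slightly above its neighbours. Irf9, the DNA-binding partner of STAT2, was 1.77-fold lower, from 7.28 ± 0.16 to 6.46 ± 0.18 (adjusted p = 0.00033). Irf7, the interferon-inducible factor that amplifies interferon production, was 1.88-fold lower, from 7.26 ± 0.17 to 6.35 ± 0.22 (adjusted p = 0.000295). Both gaps were several times the SD within a group.

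Irf1, an activator induced most strongly by interferon gamma, fell by 0.38 (adjusted p = 0.00694). Its second probe set gave -0.23 and did not pass (adjusted p = 0.0641, adjusted over all probe sets). Irf2, known as an antagonist of IRF1 at shared sites, was the member of the family that rose: its arrays read 8.68, 8.48 and 8.49 in DMSO and 9.08, 9.02 and 9.04 in FR (1.41-fold, adjusted p = 0.00164). Irf3, the constitutive factor that carries the signal of the sensors, did not pass (7.34 ± 0.13 and 7.12 ± 0.01, log2 change -0.22, adjusted p = 0.0936). It passed only with dim genes left out (adjusted p = 0.0487), where fewer genes were tested. Irf5 and Irf8, factors best known in blood cells, had log2 changes of 0.12 (adjusted p = 0.366) and 0.04 (0.749), with DMSO means just above background and FR means just under it.

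The RNA sensors fell together. Ddx58, the gene of RIG-I, which detects RNA with a 5′ triphosphate, read 9.22, 8.82 and 8.86 in DMSO and 7.31, 7.27 and 7.33 in FR. That is 3.17-fold lower (log2 change -1.66, SE 0.11, adjusted p = 1.6e-06), with an SD of 0.22 in DMSO and 0.03 in FR. Ifih1, the gene of MDA5, a sensor of long double-stranded RNA, gave 8.13, 7.51 and 7.76 in DMSO and 6.58, 6.40 and 6.64 in FR. It was 2.39-fold lower (adjusted p = 7.24e-05) and 2.14-fold lower without DMSO replicate 1. Dhx58, which encodes the third RIG-I-like receptor LGP2, fell by 0.57 (adjusted p = 0.00773) to a level under background, a fall of at least 1.21-fold.

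Other sensors fell too. Zbp1, a sensor of Z-form nucleic acids that can trigger cell death, read 7.70, 7.23 and 7.48 in DMSO and 5.92, 5.76 and 6.15 in FR (log2 change -1.53, adjusted p = 1.06e-05). Its FR mean of 5.94 was at the background level and FR replicate 2 was under it, so no fold is given. Tlr3, the endosomal receptor for double-stranded RNA, was at least 1.64-fold lower (log2 change -0.81, adjusted p = 0.000813). Tmem173, the gene of STING, the adaptor for cytoplasmic DNA, was 1.58-fold lower, from 8.55 ± 0.08 to 7.89 ± 0.03 (adjusted p = 0.000148), and here DMSO replicate 1 was the lowest DMSO array. Mavs, the mitochondrial adaptor below RIG-I and MDA5, did not pass (7.53 ± 0.02 and 7.45 ± 0.12, 95% confidence interval of the log2 change -0.275 to 0.11, adjusted p = 0.519).

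**Figure D3:**
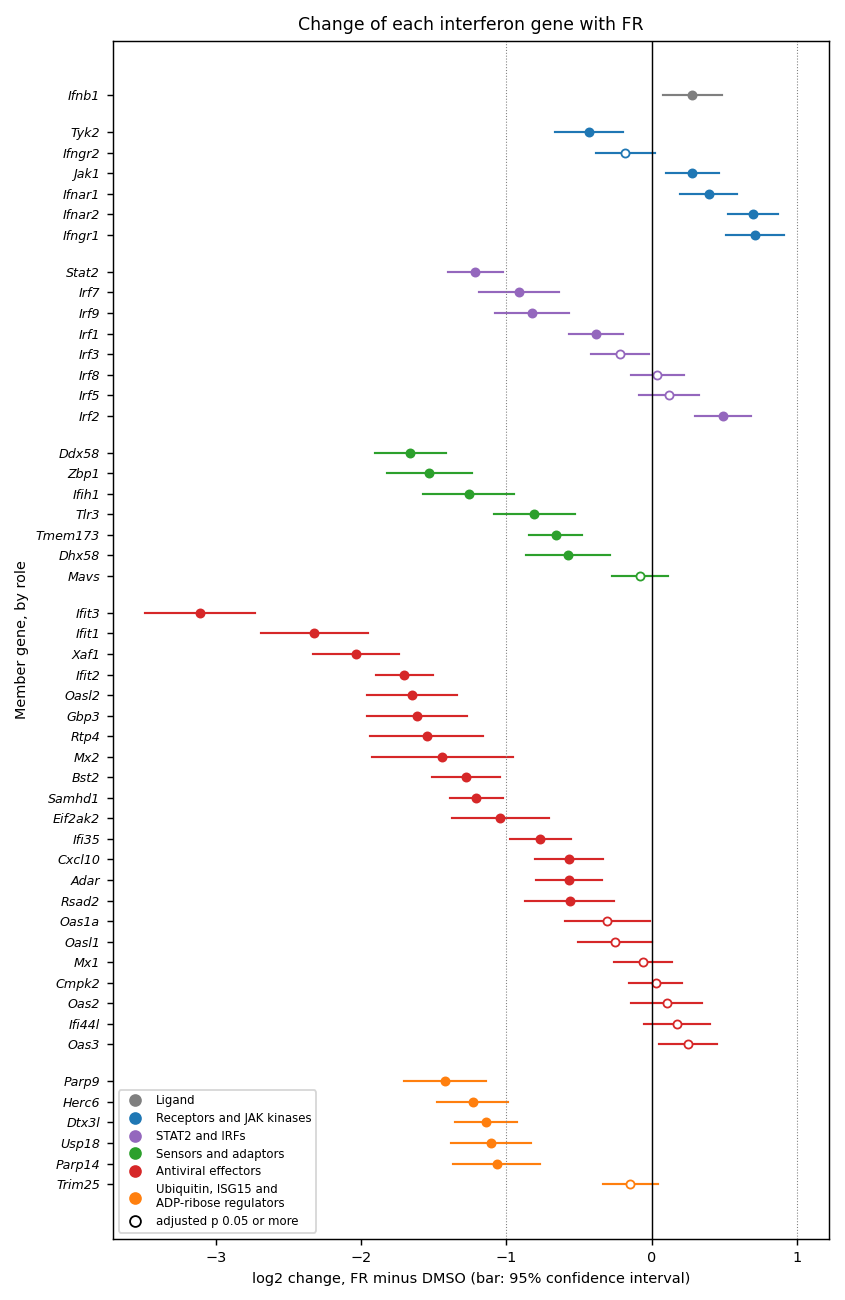
Log2 change, FR minus DMSO, of each member with its 95% confidence interval (bars), by role. Filled points passed at adjusted p under 0.05 and open points did not; Ifit3 is farthest to the left at -3.11 and Ifngr1 farthest to the right at 0.71.

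Effectors held the largest falls, led by the Ifit genes, whose proteins bind foreign RNA and block its translation. Sequence before the start of transcription is shown for 4 effectors that fell and hold the response element core, and for the receptor gene Ifnar2, which rose and lacks it. The windows are the 250 bases before the annotated start in RefSeq, build GRCm38.p6: Ifit3 at chr19:34583279-34583528 (plus strand), Ifit1 at chr19:34640639-34640888 (plus), Gbp3 at chr3:142559794-142560043 (plus), Bst2 at chr8:71537473-71537722 (minus) and Ifnar2 at chr16:91372533-91372782 (plus). Capitals mark the core on either strand in the effectors, which is GAAA, any 2 bases and GAAA again, and TTCNNNGAA, the gamma-activated site bound by STAT dimers, in Ifnar2.
Ifit3: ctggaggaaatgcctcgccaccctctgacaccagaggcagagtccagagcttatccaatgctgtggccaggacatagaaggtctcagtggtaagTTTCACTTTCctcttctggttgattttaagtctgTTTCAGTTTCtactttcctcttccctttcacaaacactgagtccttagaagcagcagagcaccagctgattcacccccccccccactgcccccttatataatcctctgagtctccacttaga
Ifit1: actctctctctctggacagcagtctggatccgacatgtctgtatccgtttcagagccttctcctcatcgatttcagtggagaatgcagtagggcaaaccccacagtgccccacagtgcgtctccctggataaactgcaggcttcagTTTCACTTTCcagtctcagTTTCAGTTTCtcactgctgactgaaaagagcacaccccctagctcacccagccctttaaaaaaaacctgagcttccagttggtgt
Gbp3: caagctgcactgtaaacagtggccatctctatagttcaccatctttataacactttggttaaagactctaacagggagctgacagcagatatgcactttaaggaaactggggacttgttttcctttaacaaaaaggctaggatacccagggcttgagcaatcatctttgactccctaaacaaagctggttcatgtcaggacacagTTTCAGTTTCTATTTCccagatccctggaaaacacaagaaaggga
Bst2: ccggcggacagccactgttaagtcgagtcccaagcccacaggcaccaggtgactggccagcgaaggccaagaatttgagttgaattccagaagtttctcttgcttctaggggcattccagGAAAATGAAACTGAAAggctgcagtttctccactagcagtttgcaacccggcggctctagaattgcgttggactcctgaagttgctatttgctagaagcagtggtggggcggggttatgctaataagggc
Ifnar2: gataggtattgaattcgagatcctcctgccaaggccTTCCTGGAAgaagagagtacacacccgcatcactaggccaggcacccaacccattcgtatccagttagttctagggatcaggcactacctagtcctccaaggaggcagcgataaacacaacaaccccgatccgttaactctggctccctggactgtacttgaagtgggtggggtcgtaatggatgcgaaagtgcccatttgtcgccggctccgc

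Each of the 4 effector windows holds 2 matches to the core. In Gbp3 and Bst2 they overlap, while in Ifit3 and Ifit1 they lie apart. Windows were used for 40 of the 50 members, and the others are Dhx58, Tmem173, Zbp1, Oas2, Mx1, Mx2, Rtp4, Usp18, Parp9 and Parp14. Member windows on chromosome 18 were left out, while the comparison with all genes kept that chromosome. The core was in the window of 10 of the 40 members (25%), against 3.46% of 27025 genes. It was found in 8 of 18 effectors, in Stat2 and Irf2, and in none of 6 receptors and kinases, 4 sensors or 3 regulators. The gamma-activated site, whose letters read the same on both strands, was in 9 members (22.5%), against 8.13% of all genes. A match describes the letters only, since binding was not measured, and of the 10 members with the core Irf2 rose, and Oas1a and Oas3 did not pass. Many members that fell have a window without the core, among them Xaf1 (log2 change -2.03), Ifit2 (-1.70), Ddx58 (-1.66) and Oasl2 (-1.65). Ifnb1, Ifnar1, Ifnar2, Ifngr1 and Jak1 lack it too and rose. The 4 effectors shown were picked for both a fall and the core, so they cannot show whether these go together.

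**Figure D4:**
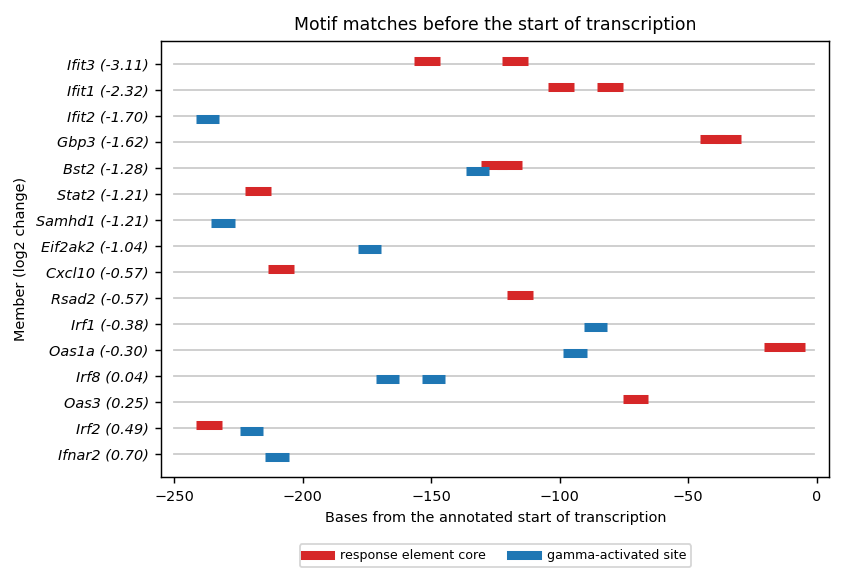
Positions of matches in the 250 bases before the annotated start of transcription (horizontal axis, bases) for the 16 members with any match, ordered by log2 change in parentheses. Red bars are the response element core and blue bars the gamma-activated site, and the members that hold the core range from Ifit3 at -3.11 to Irf2 at 0.49.

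Ifit3 read 9.97, 9.32 and 9.24 in DMSO and 6.37, 6.58 and 6.25 in FR. It was 8.63-fold lower (log2 change -3.11, SE 0.17, adjusted p = 3.95e-07), and still 7.37-fold lower without DMSO replicate 1. Ifit1 read 8.90, 8.29 and 8.31 against 5.95, 6.41 and 6.17, or 5.0-fold lower (adjusted p = 2.58e-06). Ifit2 was tighter in DMSO, at 7.88, 7.72 and 7.83 against 6.22, 6.06 and 6.04, or 3.25-fold lower (adjusted p = 2.94e-07). The highest FR array was thus below the lowest DMSO array by more than 1 log2 unit in each of the Ifit members. Ifit2 and Ifit3 are neighbours, and Ifit1 follows after 3 other genes of the family. Probe sets of such close relatives can share signal, so single members are less certain than the group.

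Xaf1, an interferon-induced promoter of cell death, read 8.45, 8.07 and 7.92 in DMSO and 6.13, 5.96 and 6.24 in FR, or 4.10-fold lower (log2 change -2.03, adjusted p = 1.45e-06). Its FR mean of 6.11 was close to the mean FR background level of 5.93. FR replicate 2 was just under the level of its own array (5.97), so the fold is less certain. Rtp4, which encodes an interferon-induced receptor transporter, read 9.02, 8.35 and 8.25 against 6.81, 7.04 and 7.12, or 2.93-fold lower (adjusted p = 7.71e-05). Its DMSO SD of 0.42 was set by replicate 1, without which the fall was 2.48-fold.

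The oligoadenylate synthetase family, whose enzymes make the messenger that activates RNase L, split. Oasl2, an interferon-induced relative, read 8.24, 7.70 and 7.87 in DMSO and 6.28, 6.47 and 6.11 in FR, or 3.14-fold lower (adjusted p = 9.04e-06). Its neighbour Oasl1 did not pass (6.90 ± 0.19 and 6.65 ± 0.15, log2 change -0.25, adjusted p = 0.13), except without DMSO replicate 3 (0.045). Oas1a likewise did not pass (6.65 ± 0.24 and 6.34 ± 0.19, log2 change -0.30, adjusted p = 0.115), except without DMSO replicate 2 (0.0327). Oas2 and Oas3, neighbours as well, were under background in both groups, with log2 changes of 0.10 (adjusted p = 0.509) and 0.25 (0.0642). Oas3 passed as higher without DMSO replicate 1 (0.0475).

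The Mx genes encode GTPases that trap viral particles, and C57BL/6, like most laboratory strains, carries a defective Mx1. Mx1 was under background on all arrays (3.94 ± 0.03 and 3.88 ± 0.14, adjusted p = 0.658). Mx2 read 6.45, 5.75 and 5.43 in DMSO and 4.17, 4.44 and 4.69 in FR (log2 change -1.44, SE 0.22, adjusted p = 0.000636). Its DMSO arrays spread widely around the background level (SD 0.52) and its FR arrays lay under it, so no fold is given. Gbp3, a guanylate-binding GTPase induced by interferon gamma, read 7.11, 6.41 and 6.64 against 4.96, 5.21 and 5.14. It was at least 1.73-fold lower (log2 change -1.62, adjusted p = 2.4e-05), with FR under background.

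Of the other effectors, 3 fell by at least 2-fold. Bst2, the gene of tetherin, which holds budding virus at the cell surface, read 8.996, 8.67 and 8.71 in DMSO and 7.57, 7.58 and 7.39 in FR, or 2.43-fold lower (adjusted p = 7.46e-06). Samhd1, which encodes an enzyme that depletes nucleotides needed for reverse transcription, read 9.85, 9.71 and 9.80 against 8.64, 8.52 and 8.58, or 2.31-fold lower (adjusted p = 2.04e-06). It had an SD of 0.07 in DMSO and 0.06 in FR, the smallest in each group among the 15 effectors that fell. Eif2ak2, the gene of the kinase PKR, which stops translation on double-stranded RNA, read 8.85, 8.49 and 8.44 against 7.78, 7.23 and 7.65, or 2.06-fold lower (adjusted p = 0.000426). Without DMSO replicate 1 its fall was 1.88-fold.

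Smaller falls were found for 4 effectors. Ifi35, an interferon-induced leucine zipper gene, was 1.70-fold lower (7.10 ± 0.09 to 6.33 ± 0.14, adjusted p = 0.000153). Adar, which edits adenosines in double-stranded RNA, was 1.48-fold lower (adjusted p = 0.00189), and the chemokine gene Cxcl10 1.49-fold lower (7.61 ± 0.17 to 7.04 ± 0.12, adjusted p = 0.00237). Rsad2, the gene of viperin, was under background in both groups (5.63 ± 0.29 and 5.06 ± 0.15) and fell by 0.57 (adjusted p = 0.0112), a call lost without FR replicate 3 (0.0544). Its neighbour Cmpk2, a nucleotide kinase gene, was also dim and did not pass (log2 change 0.03, adjusted p = 0.819), nor did the dim gene Ifi44l (0.17, adjusted p = 0.236). Of the 7 effectors that did not pass, 5 were under background in both groups, where a change of the RNA is hard to see on these arrays.

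The regulatory enzymes fell in 5 of 6 cases, each by at least 2-fold. Parp9 and Dtx3l encode a complex of an ADP-ribosyltransferase and a ubiquitin ligase that favours interferon target genes, and Parp14 encodes a further ADP-ribosyltransferase. Parp9 read 8.15, 7.92 and 7.76 in DMSO and 6.75, 6.33 and 6.49 in FR, or 2.68-fold lower (adjusted p = 1.42e-05). Dtx3l read 7.76, 7.48 and 7.52 against 6.52, 6.41 and 6.42, or 2.20-fold lower (adjusted p = 9.04e-06). Parp14 read 7.89, 7.39 and 7.31 against 6.42, 6.51 and 6.45, or 2.10-fold lower (adjusted p = 0.000179). The 3 genes stand next to each other in the genome with no other protein-coding gene between them.

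Usp18 removes ISG15 from proteins and shuts off signalling at IFNAR2. It read 7.56, 7.13 and 7.11 in DMSO and 6.03, 6.26 and 6.19 in FR, or 2.15-fold lower (adjusted p = 7.63e-05). Herc6, the main ISG15 ligase of the mouse, read 7.30, 6.90 and 6.94 against 5.78, 5.82 and 5.85, at least 2.17-fold lower (adjusted p = 1.39e-05), with FR under background. The falls of Usp18 and Parp14 were 1.94-fold and 1.85-fold without DMSO replicate 1. Trim25, a ubiquitin ligase that acts on RIG-I, did not pass (9.08 ± 0.10 and 8.93 ± 0.04, 95% confidence interval of the log2 change -0.34 to 0.04, adjusted p = 0.223).

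**Figure D5:**
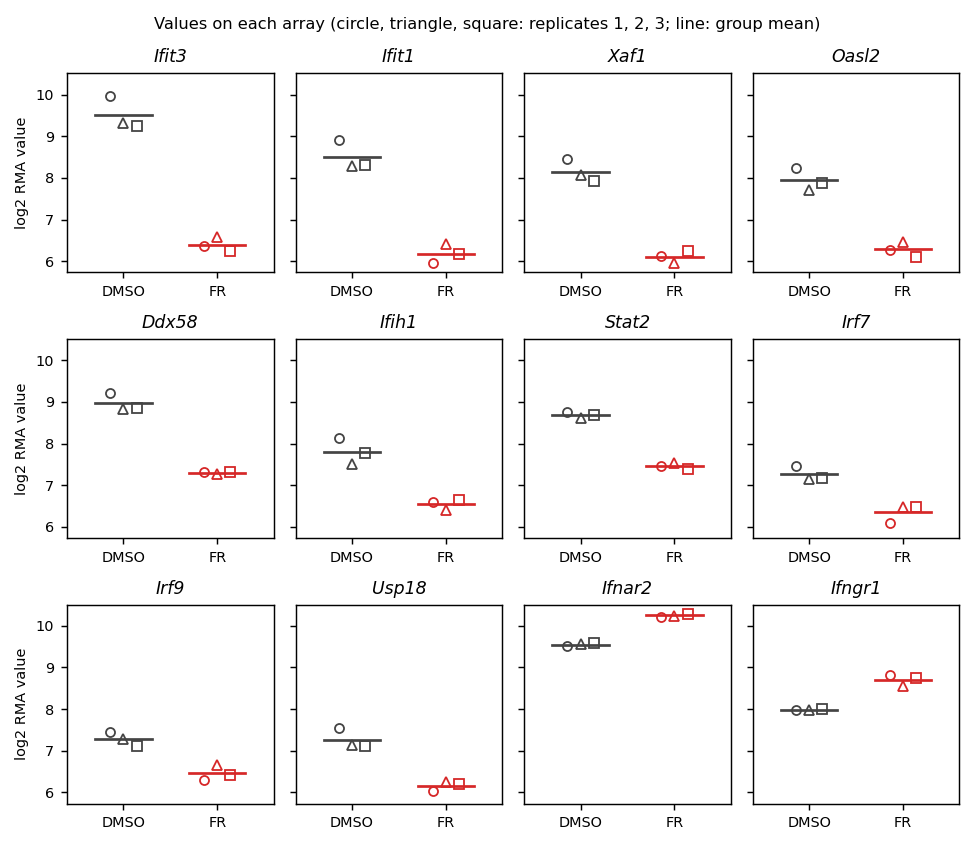
Log2 RMA values of 12 members on each array in DMSO (black) and FR (red); symbols are replicates and lines group means, to be compared within a panel only. Groups are separate in every panel, FR is lower in the first 10 and higher for Ifnar2 and Ifngr1, and the circle of DMSO replicate 1 is the highest DMSO value in the 10 members that fell.

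The members that fell varied more between the DMSO arrays than between the FR arrays: their median SD was 0.20 in DMSO and 0.13 in FR, whereas over all genes it was 0.09 and 0.12. Of the 31 that fell, 28 were highest of DMSO in replicate 1, and the exceptions were Tyk2, Irf1 and Tmem173. The mean over the 28 effectors and regulators was 7.403, 7.077 and 7.055 on the DMSO arrays and 6.163, 6.231 and 6.184 on the FR arrays. The 4 receptor chains were not highest in that array, and the mean over receptors and kinases was lowest there (8.705, against 8.778 and 8.781).

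Other genes of the pathway were taken from lists of textbook interferon targets and signalling genes. The lists were drawn up with earlier results of these data known, so their counts are no independent check on the members. Of 50 further interferon-induced genes measured, 32 (64%) fell and 3 (6%) rose, against 14.5% of all genes lower and 13.4% higher. Their median was -0.54 (2 to 3 rose and 28 to 33 fell over the alternatives). Under background were 12 of the 50 in FR only and 6 in both groups. The largest changes were falls of Ifit3b (log2 change -2.20, to a level under background), Phf11d (-2.03, 4.09-fold lower), the GTPase gene Irgm1 (-1.63, 3.09-fold lower), which acts in autophagy of pathogens, and the ubiquitin ligase gene Rnf213 (-1.48, 2.78-fold lower), all with adjusted p of 9.44e-06 or less. Those that rose, named after their values were seen, were Ifitm1 (1.23), which blocks viral entry, Pnpt1 (0.34) and Ly6e (0.30).

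Among 18 further sensing and signalling genes 2 rose and 2 fell (11.1% each way, median 0.06), near the shares of all genes, 13.4% higher and 14.5% lower. The cytokine signalling suppressor gene Socs3 rose by 0.58 (adjusted p = 0.000748) and Il10rb by 0.54, while the lipopolysaccharide receptor gene Tlr4 fell by 0.68 (adjusted p = 0.00113) and the DNA sensor gene Aim2 by 0.42 (0.0193), to a level under background. Calls for 2 lower genes became 1 without DMSO replicate 1 or FR replicate 2. Socs1, the feedback inhibitor of JAK kinases, did not pass (0.11, adjusted p = 0.39). The same holds for the kinase gene Tbk1, which acts on IRF3 (-0.07, adjusted p = 0.572), and for the DNA sensor gene Mb21d1, under background in both groups (0.18, adjusted p = 0.162). Of 13 further interferon ligand genes 1 passed, Ifnk, a keratinocyte interferon (0.45, adjusted p = 0.0326), under background in both groups.

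Lists of related immune genes were counted the same way. MHC class I and immunoproteasome genes, also induced by interferon gamma, fell in 3 of 13 cases (23.1%, against 14.5% of all genes) and rose in none, with a median of -0.18. The 3 were Tap1, the peptide transporter gene, at -0.42 (adjusted p = 0.0137), the proteasome activator gene Psme1 at -0.30 (0.0348) and Tapbp, the gene of tapasin, at -0.29 (0.0376). The classical class I heavy chain genes had no probe set naming them alone, so the 13 do not cover them. Inflammatory genes under NF-κB rose in 9 of 17 cases and fell in 1 (median 0.40), against 13.4% of all genes higher. The log2 changes were 2.76 for Saa3, 2.20 for Cxcl2 and 1.44 for Cxcl1, and Lcn2, under background in DMSO, was at least 4.14-fold higher, while the member chemokine Cxcl10 fell.

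Markers of several cell types moved with the treatment. In these bulk samples, fewer cells of a type and less RNA per cell cannot be told apart. Of 12 macrophage and dendritic cell markers, 3 rose and none fell, and 10 were under background in both groups, among them Ptprc, Csf1r and Adgre1. The mean of the 12 was 4.99 to 5.10 on the DMSO arrays and 5.16 to 5.31 on the FR arrays. The dim end of the scale as a whole lay higher with FR. Of the 3 that rose, only Cd14 was above background, while Fcer1g and Cd74 were under it in both groups. All 6 lymphocyte markers measured did not pass, with means of 4.89 to 4.985 and 4.99 to 5.225. Of 15 keratinocyte markers 14 rose, with means of 6.10 to 6.22 in DMSO and 7.286 to 7.375 in FR. Of 10 fibroblast markers 3 rose and 5 fell, with means of 10.32 to 10.36 and 10.14 to 10.21. All 8 skeletal muscle markers and 6 of 7 adipocyte markers rose. So did 3 of 7 endothelial, 2 of 7 pericyte and 3 of 6 melanocyte and Schwann cell markers. In the endothelial and pericyte lists 1 marker each fell (14.3%), near the 14.5% of all genes that were lower. Of all genes, 13.4% were higher. Krt15, Tek, Emcn, Myf5 and Tyrp1 rose while under background in both groups. The part of these shifts in the interferon changes was not tested.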

How the data were processed

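RNA from 6 samples (3 DMSO, 3 FR) was measured on arrays, grouped by title. The deposited log2 values were made by the authors with RMA in the oligo package, per the submitters' processing notes; versions are not given in the sources used here. The table holds 35556 probe sets, of which 21789 name 1 gene, 1621 several and 12146 no listed gene. RMA normalizes between arrays, so shifts shared by all genes are removed, and background correction could not be varied.

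The groups were compared by limma 3.58.1 under R 4.3.3 (lmFit, eBayes, group as the only term, all 6 arrays, two-sided, 19938 genes, no filter, Benjamini-Hochberg, threshold 0.05), after the code was tested on simulated data. Precision is limited by having 3 arrays a group; the median standard error of a change was 0.10. The members and lists were chosen with earlier results of these data known, and the olfactory receptor level comes from that earlier work. Members past the threshold with a log2 change of at least 1 are given on each array, and of each other list the 4 largest changes that passed, with Socs1, Mb21d1 and Tbk1. Promoter windows come from RefSeq (GRCm38.p6). Alternatives were quantile, median-centred and cyclic loess normalization, a gene's probe sets averaged, every probe set tested, dim genes left out, a variance trend, array weights, the replicate block and leaving out each array.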

Additional observations from a re-analysis of the deposited data

How the results depend on the processing

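Over 15 alternatives the number of members that fell lay between 30 and 32 and the number that rose between 4 and 6, against 31 and 6; 4977 genes passed with the replicate block, against 5559 without it, and 31 members fell and 5 rose in that fit. Same-numbered arrays did not deviate together over all genes (r from -0.07 to 0.05). This gives no sign of pairing by number but cannot exclude a shared culture or litter. Leaving out 1 array gave 4033 to 5914 genes, 30 to 32 members lower, 4 to 6 higher, and 19 to 21 effectors and regulators lower with 0 to 1 higher. Of the 31 falls, 30 kept their call in every alternative in which the gene was tested, the exception being Rsad2, and of the 6 rises 4 did, the exceptions being Ifnb1 and Jak1. The fold of no member moved by over 1.5 times and no called member reversed. The filter on dim genes kept 11922 genes and 42 members, and so removes members by construction. With the whole promoter window, which adds the bases after the start, 13 members held the response element core and 12 the gamma-activated site. The causes of lost calls were not tested. Signal near background limits what can be said of Ifnb1, Rsad2, Oas2, Oas3, Mx1, Cmpk2 and Ifi44l.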

Other observations

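A probe set annotated to both Oas1a and Oas1g was left out of the tests. It read 6.21, 6.11 and 6.06 on the DMSO arrays and 5.73, 5.86 and 5.78 on the FR arrays, so every FR array lay below every DMSO array there, while the FR values were under the FR background level. The Oas1a probe set used above had overlapping groups.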
